A study of Mus musculus with 6 samples.

Results

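The Myc, Max and Mxd network is a family of transcription factors that bind DNA as pairs through a basic helix-loop-helix leucine zipper. It was examined here through 9 genes, Myc, Mycn, Max, Mxd1, Mxd3, Mxd4, Mxi1, Mnt and Mlx, taken by symbol from the table that names the array's probes. All 9 had a probe, and each had 1 probe only, among 23473 probes and 16390 different gene symbols in the series. Expression was measured in CH12F3-2A, a mouse B lymphoma line that switches from IgM to IgA when it is stimulated. The cells were electroporated with siRNA against Spt6 (siSpt6, 3 samples) or with a control siRNA (siControl, 3 samples). Then, 24 h after electroporation, all 6 samples were given CIT (ligand for CD40, the cytokine interleukin 4, and TGF-beta), and total RNA was prepared 24 h later. The study asked how Spt6, which chaperones histones during transcription elongation, bears on where the switching enzyme AID acts. No unstimulated sample was analysed here, so each comparison is between stimulated cells. The labels name a Stealth-type siRNA for siSpt6 and no chemistry for the control siRNA.

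In this network Max is the shared partner. A Myc-Max pair binds the E-box CACGTG and raises transcription of genes for growth, ribosome assembly, nucleotide supply and glycolysis. Mxd proteins, Mxi1 and Mnt also pair with Max, bind the same E-box and recruit the Sin3 and histone deacetylase corepressors. Apart from Mxd3 and Mnt, they tend to be made in cells that leave the cell cycle. Mlx is a Max-like partner that pairs with Mxd1, Mxd4 or Mnt, or else with the glucose-sensing factors Mlxip (MondoA) or Mlxipl (ChREBP). In B cells Myc is induced by antigen and CD40 signals and is needed for growth and division.

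Arrays were of 1 colour, with 1 RNA on each and intensities in arbitrary units, and between 21526 and 22372 probes had a value on an array. The array medians lay between 29.97 and 30, and arrays of the same group correlated at 0.988 to 0.991 (Pearson's r, log2 intensities). The number of arrays, 3 in each group, limits the precision, and since nothing in the labels ties replicates to separate cultures, p-values cover the spread between these samples alone, possibly a technical one. The labels give no array batch, so batch and group cannot be told apart. The probe for the siRNA's target Supt6 read 25.1, 21.8 and 28.1 in siSpt6, against 33.1, 32.1 and 32.1 in siControl, a log2 difference of -0.38 that did not pass the threshold (limma adjusted p = 0.0973). The groups did not overlap, and after cyclic loess normalization the fall was called (-0.42, limma adjusted p = 0.0491). It was not called under 6 of the 7 alternatives that kept every array, quantile normalization among them. Nor was it called when any 1 of the 6 arrays was left out (limma adjusted p from 0.0728 to 0.222). The direction of each comparison is taken from the siRNA label. All 11 measured B cell markers of 12 had a median over the 6 arrays above 30, with summed intensities of 32342 to 35821 in siSpt6 and 31583 to 35685 in siControl. By the same median, 1 of 9 T cell, 3 of 10 myeloid and 1 of 6 erythroid markers measured lay above 30. Summed levels were 873 to 1011 in siSpt6 and 1359 to 1518 in siControl for the T cell list, mostly from Cd28 (952, 820 and 859 in siSpt6, against 1358, 1447 and 1307 in siControl). They were 310 to 394 in siSpt6 and 280 to 319 in siControl for the myeloid list, and 124 to 144 in siSpt6 and 94.3 to 112 in siControl for the erythroid list, in which Tfr2 rose (31.2, 31.9 and 42.4 in siSpt6, against 7.46, 8.16 and 8.14 in siControl, limma adjusted p = 0.000665). Of the 11 B cell markers measured, Cd79b and Blk rose and Cd22 fell (limma adjusted p = 0.0391, 0.0393 and 0.0281), and 8 were not called. Over all probes 7.43% were higher and 8.9% lower in siSpt6. The part of these markers in the results below was not tested. These are bulk samples, so fewer cells of a type and less RNA per cell cannot be told apart.

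Myc transcript was lower in siSpt6. The Myc probe (M200000925) read 420, 633 and 662 on the siSpt6 arrays, against 1050, 1319 and 999 on the siControl arrays. Every siSpt6 value lay below every siControl value, and siSpt6 replicate 1 was the lowest of all. The means were 572 ± 132 in siSpt6 and 1123 ± 172 in siControl (intensity ± SD, n = 3 each). The log2 difference was -0.99 (SE 0.21, 95% interval -1.49 to -0.49), a 1.99-fold fall (limma adjusted p = 0.0224 over all 21584 probes tested). The fall was smaller after quantile normalization (-0.78, limma adjusted p = 0.0433) and after cyclic loess normalization (-0.80, limma adjusted p = 0.0382). Leaving out siControl replicate 1 ended the call at a log2 difference of -1.03 (limma adjusted p = 0.0536), and so did leaving out siControl replicate 2, at -0.87 (limma adjusted p = 0.0663).

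Mxi1, a repressor that competes with Myc for Max, was lower as well. Its probe (M200000819) read 67.8, 69.7 and 66.7 in siSpt6, against 139, 119 and 119 in siControl. The 3 siSpt6 values lay close together, far below the control range. Means were 68.0 ± 1.51 in siSpt6 and 125 ± 11.5 in siControl (SD, n = 3 each), with a log2 difference of -0.88 (SE 0.12), a 1.84-fold fall (limma adjusted p = 0.00465). This fall passed the threshold whichever of the 6 arrays was dropped (limma adjusted p from 0.0141 to 0.0202) and under the 8 other alternatives run (0.000355 to 0.0181).

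Mxd3, a repressor of the same family that is unusual in being made in dividing cells, was the member that rose. Its probe (M300002784) read 25.04, 30.68 and 29.99 in siSpt6, against 21.3, 20.3 and 19.5 in siControl. The groups did not overlap, although siSpt6 replicate 1 came close to the controls. The mean was 28.6 ± 3.07 in siSpt6 and 20.4 ± 0.897 in siControl (SD, n = 3 each), a 1.40-fold rise (log2 difference 0.48, SE 0.13, limma adjusted p = 0.0457). The call was narrow, and it was lost after quantile normalization (limma adjusted p = 0.0518), after cyclic loess normalization (limma adjusted p = 0.0792) and when 1 of 5 arrays was dropped (highest limma adjusted p 0.126).

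**Figure D1:**
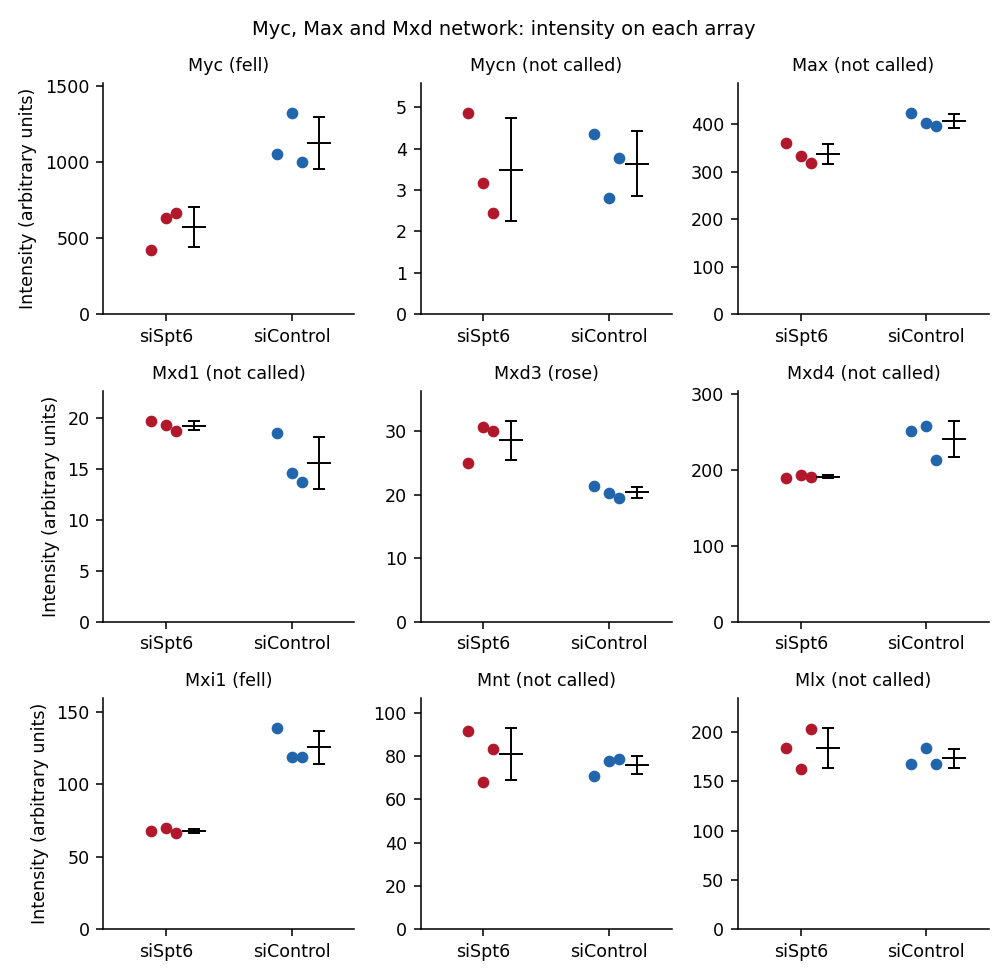
Intensity (arbitrary units, linear axes starting at 0) of the 9 network genes on each array, siSpt6 in red and siControl in blue, with the mean ± SD of 3 arrays in black and the outcome of the limma test in each title. Myc and Mxi1 are lower and Mxd3 is higher on every siSpt6 array than on any siControl array, while the groups overlap for Mycn, Mnt and Mlx.

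The other 6 members did not pass the threshold. Max, the common partner, read 360, 332 and 318 in siSpt6, against 423, 402 and 396 in siControl. Its groups did not overlap, but the log2 difference was small at -0.27 (95% interval -0.54 to -0.01, limma adjusted p = 0.153). After quantile or cyclic loess normalization the difference in Max lay nearer to 0, the closest of the alternatives run being -0.12. Mxd4, a repressor linked to rest and differentiation, read 189, 193 and 191 in siSpt6, against 252, 257 and 213 in siControl. That is a log2 difference of -0.33 (95% interval -0.62 to -0.04, limma adjusted p = 0.121), which passed only when the test was confined to bright probes (limma adjusted p = 0.0441). Mxd1, the founding Mxd repressor, read 19.7, 19.3 and 18.7 in siSpt6, against 18.5, 14.6 and 13.7 in siControl. The lowest siSpt6 value of Mxd1 was only just above the highest control value, and the log2 difference was 0.32 (95% interval -0.03 to 0.66, limma adjusted p = 0.196).

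Mnt, the broadly made Max partner that antagonises Myc in proliferating cells, read 91.5, 67.9 and 83.2 in siSpt6, against 70.9, 77.8 and 78.8 in siControl. Mlx read 184, 163 and 204 in siSpt6, against 168, 184 and 168 in siControl. Both probes gave overlapping groups and a log2 difference of 0.08, with 95% intervals of -0.26 to 0.43 for Mnt and -0.23 to 0.38 for Mlx (limma adjusted p = 0.754 and 0.737). A change of up to about 1.35-fold in Mnt and 1.31-fold in Mlx therefore lies within the intervals. Mycn, the Myc paralogue best known from the nervous system, was at the dim end in both groups, with 4.85, 3.18 and 2.43 in siSpt6 and 4.35, 2.80 and 3.76 in siControl. The 10th percentile of all values was 2.66, and no detection limit comes with the table, so the Mycn values do not show whether the transcript was present.

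Of the 9 members 1 rose and 2 fell. In the fit over all probes, 16.3% passed the threshold, 7.43% higher and 8.9% lower in siSpt6, and with 1 probe for each named gene the shares were 7.4% higher and 9.65% lower. With so few genes the counts describe the members only. The median log2 difference of the members was -0.09, against -0.00 over all 15224 named genes tested. For 6 of the 9 members the groups did not overlap (2 higher and 4 lower), where groups did not overlap for 37.3% of the probes with 6 values (16.9% higher and 20.4% lower).

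Genes that extend the network did not pass the threshold either. Mlxip, the MondoA partner of Mlx, read 195, 186 and 258 in siSpt6, against 169, 156 and 190 in siControl (log2 difference 0.30, limma adjusted p = 0.276). Mlxipl, known as ChREBP, had a log2 difference of -0.23 and groups that did not overlap (19.1 to 20.9 in siSpt6 and 21.7 to 24.6 in siControl, limma adjusted p = 0.227). Mga, a very large protein that pairs with Max, and Mycl, the third Myc paralogue, had log2 differences of -0.23 and -0.24 with overlapping groups (limma adjusted p = 0.417 and 0.452). Mycl was dim, at 8.39 to 11.5 in siSpt6 and 9.32 to 13.5 in siControl.

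**Figure D2:**
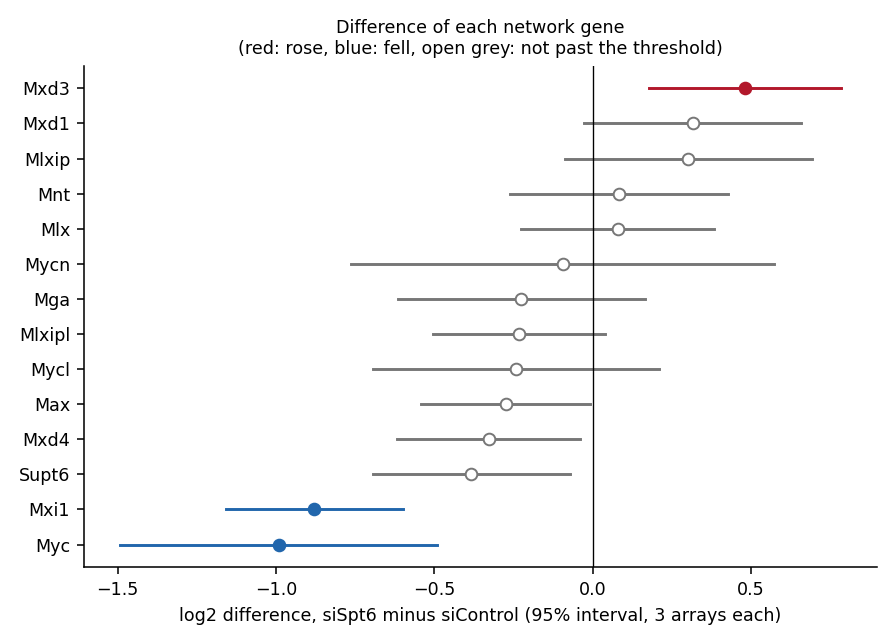
The log2 difference (siSpt6 minus siControl) of each of the 9 network genes, the 4 genes that extend the network and Supt6, with its 95% interval from limma (3 arrays in each group, unadjusted). The intervals of Mxd3, Mxi1 and Myc, at the top and the bottom, lie clear of 0. Those of Max, Mxd4 and Supt6, which did not pass the adjusted threshold, also exclude 0, while those of the other genes span it.

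The E-box that these factors bind also lies in the promoters of some of their own genes. RefSeq promoter windows (GRCm38.p6, 250 bases before to 50 after the start) were held for 8 of the 9 members, all but Myc, and were searched for CACGTG, which reads the same on both strands. The motif was found in 4 of the 8, Max, Mlx, Mnt and Mxd4, whereas 10.4% of 12193 tested genes with a window and 7.15% of all 32851 windows hold it. The stretches around it are shown because these are the members whose promoters carry the network's own binding motif, with CACGTG in capitals and 12 bases on each side, 5′ to 3′ on the gene's strand.
Max: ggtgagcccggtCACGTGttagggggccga
Mlx: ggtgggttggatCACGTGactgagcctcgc
Mnt: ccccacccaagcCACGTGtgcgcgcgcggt
Mxd4: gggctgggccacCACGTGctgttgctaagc
The first base of the motif lay 3 bases before the start in Max (chr12:76962234-76962263, minus strand), 40 before it in Mlx (chr11:101087238-101087267, plus strand), 123 before it in Mnt (chr11:74830789-74830818, plus strand) and 219 before it in Mxd4 (chr5:34187912-34187941, minus strand). The 4 members that hold the motif were not past the threshold, and of the 4 without it in these windows Mxi1 fell, Mxd3 rose, and Mxd1 and Mycn were not called. A match is a run of letters and not a measured site of binding.

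Genes commonly given as induced by Myc were lower in siSpt6, in a list chosen with earlier results of these data known. The counts therefore describe the list and are not a test of it. Of 60 listed, 56 were measured, and 45 of them fell and 0 rose, which is 80.4% lower where 8.9% of all probes were lower. The median log2 difference of the list was -0.80, against -0.00 over all named genes. For 48 of the 56 the groups did not overlap, and each of the 48 was lower in siSpt6. Of all probes with 6 values, groups did not overlap for 37.3%, and 20.4% were the lower ones. The list was bright, with a median log2 intensity of 9.41 against 5.30 for all named genes, and bright probes were more often lower in the deposited values. Of the brightest 5396 probes 28.2% were called, 7.52% higher and 20.7% lower. After quantile normalization 34 of the 56 fell, with a median of -0.60, where 6.39% of all probes and 11% of the brightest 5396 were lower. After cyclic loess normalization 36 fell, with a median of -0.61, where 7.26% of all probes and 12% of the brightest 5396 were lower. The part of brightness in the counts was not tested further.

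**Figure D3:**
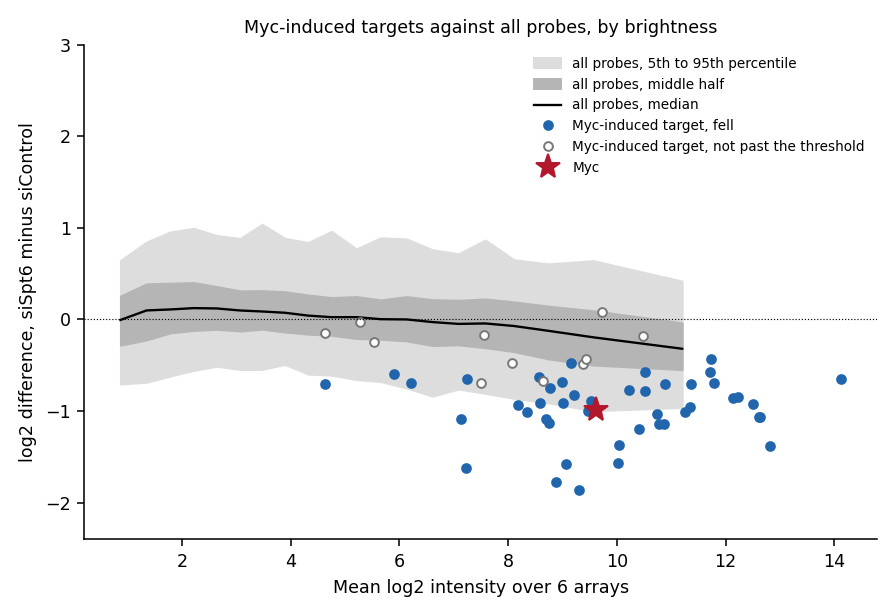
The log2 difference (siSpt6 minus siControl) against the mean log2 intensity over 6 arrays for the 56 Myc-induced targets (blue, fell; open, not past the threshold) and Myc (star), over the spread of all tested probes in 20 bins of brightness. The median of all probes bends below 0 at the bright end, to -0.32 in the brightest bin, and 47 of the 56 targets lie below the lower quartile of their own bin.

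The 4 falls with the smallest adjusted p were Bcat1, Cdca7, Ccnd2 and Tfrc. Bcat1, the cytosolic branched-chain aminotransferase, read 262, 231 and 275 in siSpt6, against 930, 835 and 853 in siControl, a 3.41-fold fall (log2 difference -1.77, SE 0.12, limma adjusted p = 0.000656). Cdca7, a chromatin factor of dividing cells, read 320, 298 and 313 in siSpt6, against 975, 879 and 921 in siControl, a 2.98-fold fall (limma adjusted p = 0.000656). Groups were widely separated for both. Ccnd2, cyclin D2, which drives B cells into the cycle, read 86.6, 94.3 and 76.5 in siSpt6, against 269, 269 and 251 in siControl, a 3.08-fold fall (limma adjusted p = 0.00078). Tfrc, the transferrin receptor, read 381, 279 and 344 in siSpt6, against 1279, 1203 and 1129 in siControl, a 3.62-fold fall (limma adjusted p = 0.000865). These 4 calls held under the alternatives run, with limma adjusted p no higher than 0.00984.

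Sorted by role, a grouping made after the values were seen, the falls were spread over the list. All 12 enzymes of polyamine, nucleotide and one-carbon supply fell, with log2 differences of -1.56 to -0.43. Among them Odc1, the ornithine decarboxylase that starts polyamine synthesis, read 1032, 1235 and 1286 in siSpt6, against 2678, 2702 and 2415 in siControl (log2 difference -1.14, limma adjusted p = 0.00295). Of 19 genes of the nucleolus and ribosome assembly 15 fell, with a median log2 difference of -0.74. After quantile and cyclic loess normalization 10 and 11 of these 19 fell, and 8 of the 12 enzymes fell under both. Of 5 genes of glucose uptake and glycolysis 4 fell, and of 7 cell cycle genes 6 fell. Of 4 translation initiation factors 1 fell, and all 4 lay below 0, with a median log2 difference of -0.48. Beside these counts, 8.9% of all probes and 20.7% of the brightest 5396 were lower in the deposited values. After quantile normalization these shares were 6.39% and 11%, and after cyclic loess normalization 7.26% and 12%. Odc1 was named after its values were seen, as were the genes below in this paragraph. Ubtf, a factor of RNA polymerase I, was the single gene of the 56 with a difference above 0 (log2 difference 0.08, limma adjusted p = 0.696). Pa2g4, a nucleolar growth regulator, could not be read well, because siControl replicate 3 stood at 57.0 beside 519 and 408 in the other controls, and siSpt6 read 233, 113 and 109.

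The E-box was present in 27.1% of the 48 Myc-induced targets with a promoter window (13 genes), against 10.4% of all tested genes. Among those with the motif 11 of 13 fell, with a median log2 difference of -0.71, and among those without it 26 of 35 fell, with a median of -0.82. With 1 probe for each named gene 9.65% were lower, and of the brightest 5396 probes 20.7% were. Over all tested genes with a window, CACGTG was held by 13.2% of those that fell, 11.9% of those that rose and 9.88% of those not called. In the lists of Myc-repressed and Mlx-dependent genes described below, 5 of 13 (38.5%) and 2 of 6 (33.3%) with a window held it. Cdk4, the G1 kinase that partners D cyclins, is shown as the target with 4 copies in 1 window, and it was chosen after its values were seen.
Cdk4 site 1: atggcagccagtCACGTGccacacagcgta
Cdk4 site 2: aagtcaaggggtCACGTGggatagcaacag
Cdk4 site 3: atagcaacaggtCACGTGgccgtcagggcc
Cdk4 site 4: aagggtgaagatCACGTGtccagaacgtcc
In capitals is CACGTG, which begins 172, 118, 98 and 11 bases before the start of Cdk4, on the plus strand in stretches of GRCm38.p6 from chr10:127063351-127063380 to chr10:127063512-127063541. Cdk4 read 1983, 1998 and 2248 in siSpt6, against 3133, 3348 and 3675 in siControl, a 1.63-fold fall (limma adjusted p = 0.0111).

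Genes commonly given as repressed by Myc did not move together. Of 17 listed, 15 were tested, of which 3 rose and 1 fell, where 7.43% of probes were higher and 8.9% lower, and the median log2 difference was -0.07. Ccng2, cyclin G2, which is made in cells leaving the cycle, read 741, 760 and 851 in siSpt6, against 218, 246 and 255 in siControl, a 3.27-fold rise (limma adjusted p = 0.000676). Tob1, an antiproliferative protein of the BTG family, rose 2.07-fold, with 395 to 433 in siSpt6 and 182 to 212 in siControl (limma adjusted p = 0.00262). Ndrg1, a stress-induced differentiation gene, read 17.3 to 17.6 in siSpt6 and 9.60 to 13.6 in siControl (log2 difference 0.64, limma adjusted p = 0.0325), a rise lost after cyclic loess normalization (limma adjusted p = 0.0963) and without any 1 of 5 arrays. Its relative Ndrg2 fell 1.80-fold, with 40.8 to 46.2 in siSpt6 and 76.7 to 79.5 in siControl (limma adjusted p = 0.00432). The count of 4 calls was 7 of 15 with eBayes trend and robust options (5 higher and 2 lower). Of all 21584 probes 1996 were higher and 2572 lower under those options. Among bright probes it was 7 of 12 (4 higher and 3 lower), where 1459 of all 10792 bright probes were higher and 2515 lower.

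Of 7 genes that depend on Mlx with MondoA or ChREBP, Klf10, a Krüppel-like factor, rose 2.11-fold (56.5 to 78.9 in siSpt6 and 27.7 to 39.8 in siControl, limma adjusted p = 0.0121). Fasn, fatty acid synthase, fell 2.26-fold (296 to 414 in siSpt6 and 759 to 879 in siControl, limma adjusted p = 0.00462). The other 5 were not called, and over all probes 7.43% were higher and 8.9% lower. Among the 5 was Txnip, the most used readout of MondoA, with a log2 difference of 0.08 (95% interval -0.42 to 0.58, named after its value was seen). As background, Klf10 is also a TGF-beta response gene and Fasn a target of SREBP.

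Among 19 measured cofactors of Myc 2 rose (10.5%) and 3 fell (15.8%), where 7.43% of all probes were higher and 8.9% lower, and 7.52% and 20.7% of the brightest 5396. Ruvbl1 and Ruvbl2, the paired ATPases that bind Myc in chromatin complexes, fell 1.79-fold and 2.16-fold. Ruvbl1 read 868, 813 and 841 in siSpt6, against 1489, 1513 and 1520 in siControl (limma adjusted p = 0.0037), and Ruvbl2 averaged 497 ± 124 in siSpt6 and 1054 ± 80.6 in siControl (SD, n = 3 each, limma adjusted p = 0.01). Kat2a, the GCN5 acetyltransferase that Myc recruits through Trrap, read 157, 206 and 234 in siSpt6, against 377, 418 and 381 in siControl, a 1.99-fold fall (limma adjusted p = 0.00979). Bin1, an adaptor protein that binds and restrains Myc, rose 1.42-fold, with 1270 to 1399 in siSpt6 and 875 to 990 in siControl (limma adjusted p = 0.0267), and missed the threshold whichever of the 6 arrays was left out (highest limma adjusted p 0.0773). The elongation kinase Cdk9 rose 1.49-fold (limma adjusted p = 0.0376), which did not hold when any 1 of 5 arrays was left out.

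Of 12 measured corepressor genes that serve Mxd proteins and Mnt, 3 rose (25%) and 2 fell (16.7%), where 7.43% of all probes were higher and 8.9% lower. Of the brightest 5396 probes 7.52% were higher and 20.7% lower. The rises were Sap18 (1.85-fold, limma adjusted p = 0.00846), Arid4b (1.78-fold, limma adjusted p = 0.0104) and Arid4a (1.52-fold, limma adjusted p = 0.0232), all parts of Sin3 complexes. Sap18 read 83.1, 87.0 and 65.9 in siSpt6, against 41.4, 44.9 and 40.2 in siControl. The rise of Arid4a was lost without siControl replicate 1, 2 or 3 (limma adjusted p up to 0.0706). The falls were Rbbp7, a histone-binding subunit (1.68-fold), and Ing1, a reader of methylated histone H3 (1.45-fold, limma adjusted p = 0.0163). Both falls were lost after quantile normalization (limma adjusted p = 0.0680 and 0.0914). That leaves 3 rises and 0 falls, where 8.59% of all probes and 12.5% of the brightest 5396 were higher. Cyclic loess gave the same counts, with 8.38% of all probes and 12.6% of the brightest 5396 higher. Sin3a and Sin3b, the scaffolds, were not called, with log2 differences of -0.15 and -0.20 (named after their values were seen).

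Of 16 measured genes that set the stability of Myc protein, 1 rose and 4 fell (25%), where 8.9% of all probes and 20.7% of the brightest 5396 were lower. Pim2, a kinase that stabilises Myc, read 789, 994 and 1216 in siSpt6, against 2384, 2719 and 3018 in siControl, a 2.74-fold fall (log2 difference -1.45, SE 0.19, limma adjusted p = 0.00408). It held whichever array was dropped (highest limma adjusted p 0.0195). Skp2, a ubiquitin ligase subunit that acts on Myc, fell 1.39-fold, and Aurka, a mitotic kinase that protects the Mycn protein, fell 1.46-fold (limma adjusted p = 0.0294 and 0.0176). Quantile normalization ended both calls (limma adjusted p = 0.123 for Skp2 and 0.0710 for Aurka), as did cyclic loess (0.109 for Skp2 and 0.0546 for Aurka). Skp2 also missed the threshold whichever of the 6 arrays was left out (limma adjusted p from 0.0559 to 0.0875), and Aurka when any 1 of 3 was. Usp37, a deubiquitinase, fell from a dim level, with 13.3 to 16.4 in siSpt6 and 20.4 to 24.2 in siControl, and Fbxo32, an F-box protein, rose 1.64-fold (limma adjusted p = 0.0236 and 0.016). The call of Usp37 was lost without any 1 of 4 arrays and that of Fbxo32 without any 1 of 3. Fbxw7, the ligase subunit best known for degrading Myc, was not called (log2 difference 0.16, limma adjusted p = 0.522, named after its value was seen).

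**Figure D4:**
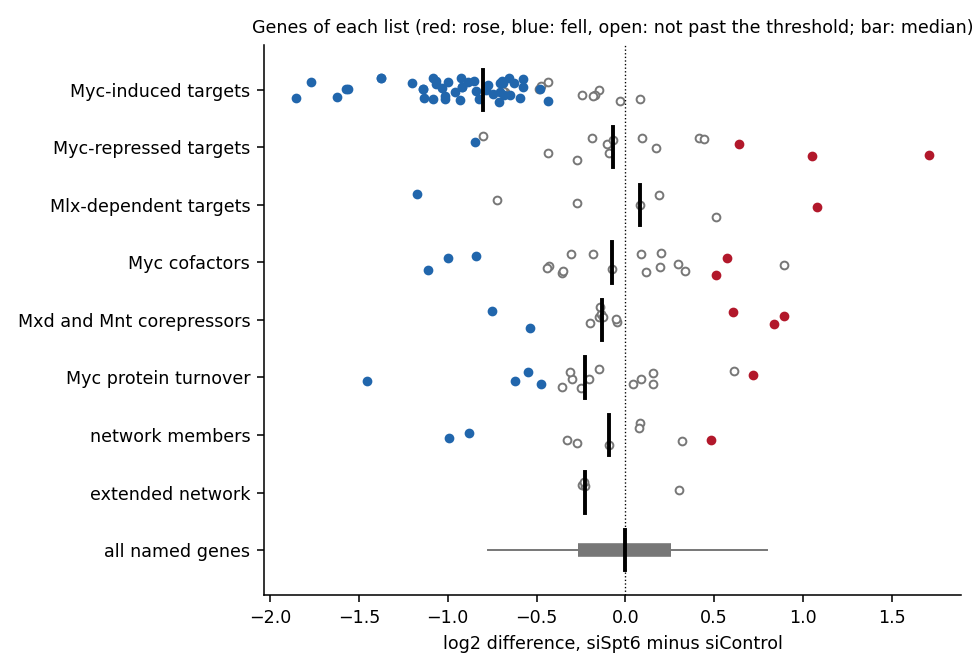
The log2 difference (siSpt6 minus siControl) of each measured gene in the 8 lists, with the list median as a black bar and, in the bottom row, the 5th to 95th percentile (line) and interquartile range (thick bar) of all 15224 named genes. The Myc-induced targets lie to the left of 0 with 1 exception, and the medians of the other 7 lists lie between -0.23 and 0.08.

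Genes whose profile over the 6 arrays was most like that of a called member were found by the root mean square difference of log2 values after each gene's mean was taken off, among 13934 other named genes. The nearest to Myc were Dlk1 (difference 0.07), Cdt1 (0.09) and Nop56 (0.10). Cdt1, a replication licensing factor, read 314, 405 and 444 in siSpt6, against 809, 950 and 745 in siControl, and so shared with Myc the lowest value in siSpt6 replicate 1 and the highest in siControl replicate 2. Nop56, a nucleolar protein on the list of Myc-induced targets, had its lowest and highest values on those same arrays, with 1576, 2071 and 2003 in siSpt6 and 3327, 4430 and 3270 in siControl. Both genes were picked for their likeness to Myc, so the shared arrays are not a separate result. Dlk1 was very dim (1.26 to 2.05 in siSpt6 and 2.92 to 3.52 in siControl), near or below the 10th percentile of 2.66. The nearest to Mxi1 were Cyfip2, Elac2 and Ppif, and the nearest to Mxd3 were Mbd1, F11r and Slc26a2, with differences of 0.05 to 0.06.

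**Figure D5:**
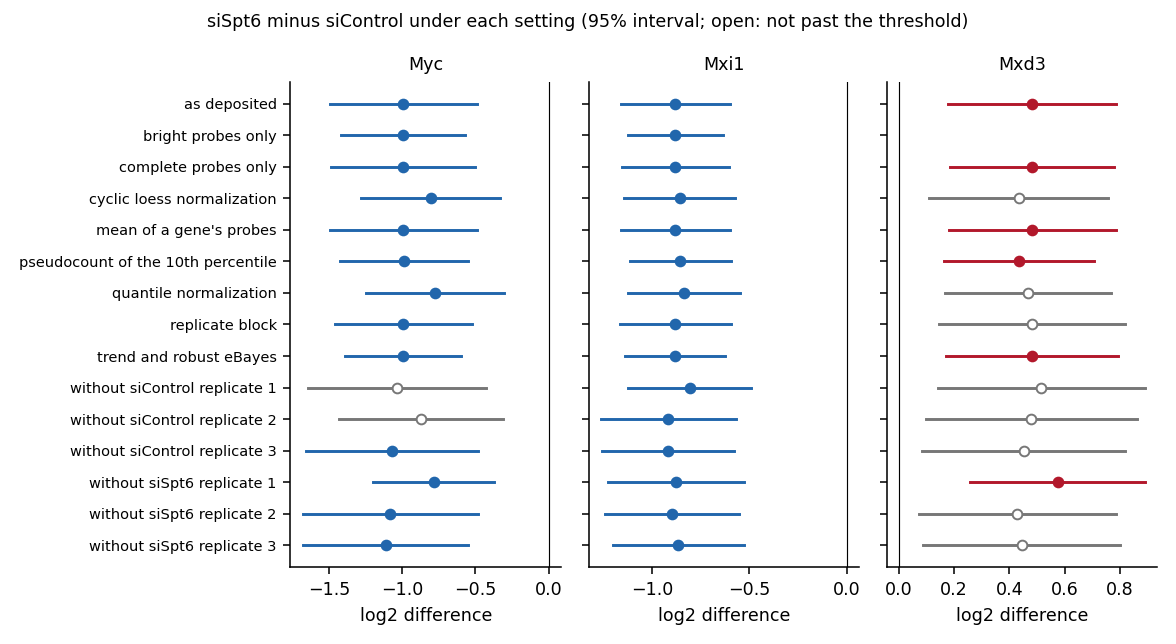
The log2 difference (siSpt6 minus siControl) of Myc, Mxi1 and Mxd3 with its 95% interval, as deposited and under each alternative, filled where limma's adjusted p was under 0.05. Mxi1 keeps its call throughout, Myc loses its call without siControl replicate 1 or 2, and Mxd3, which is too dim for the setting with bright probes only, keeps its call as deposited and under 5 alternatives.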

How the data were processed

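RNA was amplified into amino allyl RNA, coupled to Cy5 and hybridised after the maker's protocol, per the labels' protocols. The authors deposited 1 intensity per probe and array, on a linear scale. Steps not given in the sources used here include background correction and normalization. That the array medians share 1 value, near 30, was read from the numbers. Blanks (4.69% to 8.29% of probes) were taken as missing. Groups come from the sample titles. Probes were named from the platform's symbols, updated with RefSeq names of GRCm38.p6 (3947 probes carried an older symbol of 1 gene). Coordinates are given only for RefSeq promoter sequences.

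Values were log2-transformed without a pseudocount. Probes with a value on at least 2 arrays in each group (21584) were fitted with limma 3.58.1 in R 4.3.3 (lmFit and eBayes, group as the only term, two-sided), with Benjamini-Hochberg adjustment over all tested probes and a threshold of 0.05. Where a gene had more than 1 probe, the brightest tested probe stood for it. Means ± SD are of linear intensities, and folds come from the fitted log2 difference. Lists were described by counts and medians, with no set test. Named genes were Supt6, the members, the genes that extend the network, and, by smallest adjusted p, at most 4 higher and 4 lower genes of each list (or all, if no more than 5 were called), the 3 genes nearest in profile to each called member, plus those said to be named afterwards. The members and lists were chosen with earlier results of these data known. The scripts were tested on simulated data. Alternatives were quantile and cyclic loess normalization, bright probes only (mean log2 of at least 4.98), complete probes only, a pseudocount of 2.66, eBayes with trend and robust options, the replicate number as a block, each array left out, and, for the members, the mean of a gene's probes.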

Additional observations from a re-analysis of the deposited data

How the results depend on the processing

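The fall of Mxi1 kept its direction and its call under all 14 alternatives, and that of Myc did so under 12, with log2 differences from -1.11 to -0.78 when 1 array was left out. Myc missed the threshold at -1.03 and -0.87 without siControl replicate 1 and siControl replicate 2. The count of members called was 3, and 1 to 3 when 1 array was left out, with 1 (Mxi1) without siControl replicate 1 or siControl replicate 2. The count of probes called was 3525, and 2099 to 2522 with 1 array left out, the lowest without siControl replicate 1. Left-out arrays gave 35 to 42 Myc-induced targets called (45 with all arrays), 3 to 4 Myc-repressed targets (4), 3 to 4 cofactors (5), 3 to 5 corepressors (5) and 1 to 4 genes of Myc protein turnover (5). The last count was 1 without siControl replicate 1 or siControl replicate 2 and 2 without siSpt6 replicate 1. Cofactors were at 3 without any 1 control array or siSpt6 replicate 1, and corepressors at 3 without siControl replicate 2. Quantile and cyclic loess normalization each left 3 corepressors called. Myc-repressed targets came to 7 calls among bright probes and to 7 with trend and robust options. Mycn changed sign without siControl replicate 1 (0.05) and without siSpt6 replicate 3 (0.14), within a range of -0.36 to 0.14, and Mnt without siSpt6 replicate 1 (-0.011), within -0.011 to 0.20, and neither was called. Causes of these changes were not tested, beyond the fewer arrays or probes that a setting leaves.

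The replicate numbers are shared between the groups. Deviations from the group means correlated at 0.351, 0.0759 and 0.262 for same-numbered arrays, and at -0.292 to 0.0159 for the other pairs. Every array thus correlated best with its own number. Because the value for replicate 2 was low, the numbers were not taken to pair the samples in the main fit. With the replicate block the Myc difference was -0.99 (limma adjusted p = 0.0334), 2 members were called, Mxd3 not among them (limma adjusted p = 0.0713), and 43 Myc-induced targets fell.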
